A study of Canis lupus familiaris with 29 samples.

Results

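Mitosis and spindle genes encode the proteins that condense and hold the chromosomes, build the spindle, attach chromosomes to it, time their separation and divide the cell. The genes described here were chosen by name as a list of 54, and 50 of the 54 were found by name among the 30951 genes of the count table. MAD2L1 (a spindle checkpoint protein), CCNB1 (cyclin B1), BIRC5 (survivin, of the chromosomal passenger complex) and PTTG1 (securin) were not found by name, and no value is given for them.

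RNA was sequenced from tumors of 19 dogs with a PPGL, a tumor of chromaffin cells of the adrenal medulla or of related cells outside it, and from the normal adrenal medulla (NAM) of 10 dogs. The tumors comprised 7 of PPGL group 1 and 12 of PPGL group 2, and 2 further tumors had been left out by the authors as outliers. The labels give no genotype, treatment or age for any group. Tumors came from client-owned dogs of several clinics and NAMs from healthy research dogs, so origin and tissue cannot be told apart. Tumors, taken at surgery or after euthanasia, were snap-frozen or first fixed in RNAlater, while NAMs were snap-frozen. Preservation thus also differed in part with tissue. The authors drew the groups from a principal component analysis of these samples, so a p-value between the groups describes that split. All NAMs contained RNA of adrenal cortex markers, whose values are given beside the results they move with.

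Most mitosis genes are transcribed late in the cell cycle. The MuvB complex, together with MYBL2 and FOXM1, switches them on in dividing cells, and the DREAM complex holds them off in resting cells. Adult chromaffin cells divide rarely, and the protein of MKI67 is a common marker of dividing cells in tumor pathology.

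Reads counted over all genes ranged from 19258054 to 35918182 per NAM and from 18208718 to 31919833 per tumor. Levels are given as CPM, counts scaled to the same total in every sample after TMM normalization, which sets that total so that most genes have alike levels. A count of 3 was taken as the floor, which before TMM scaling is 0.0835 to 0.156 CPM depending on the NAM and 0.0940 to 0.165 CPM depending on the tumor, and covers counting error only. Counts of CENPA were 3 or fewer in 3 NAMs, NEK2 in 2, CCNA2, CCNB2, CDC25C and KIF11 in 1 each, and SGO1 in 1 PPGL. A log2 fold change (log2 FC) is given with its standard error (±), and a gene is called higher or lower when the p-value of edgeR's quasi-likelihood (QL) test, adjusted for the false discovery rate (FDR) over all genes tested, was below 0.05 against NAM or below 0.1 between the PPGL groups. Shares of all genes are counted at these FDR-adjusted thresholds, so counts at an unadjusted p have no such share beside them. In bulk tissue, fewer cells of a type and less RNA per cell cannot be told apart.

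Replicate 7 of group 1 stood apart from the other tumors. It was the highest of the 29 samples for 47 of the 50 members, and its members summed to 4557 CPM, against 1126 CPM in replicate 2, the next highest tumor. For MYBL2 it had 227 CPM and the next highest tumor 16.1 CPM, a ratio of 14.1, and for TOP2A the ratio was 7.95. HMMR, TACC3 and BUB3 were the exceptions, highest in replicate 1 of group 1, replicate 11 of group 2 and replicate 4 of group 1. Its chromaffin markers were uneven. TH, the enzyme that makes the catecholamine precursor DOPA, had 1382 CPM, while chromogranin B (CHGB) had 27.1 CPM against a NAM median of 21468 CPM. Counts of called members and the log2 FCs of single members are therefore given with and without this tumor, unless stated otherwise.

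The first comparison asked which mitosis genes differ between PPGLs and NAMs. Of the 50 members, 44 were higher in PPGLs and 0 were lower by edgeR's QL test, while 22.3% of the 14766 genes tested were higher and 15.2% lower. At an unadjusted p under 0.05, edgeR gave 0 lower members, DESeq2's Wald test 0, the Mann-Whitney U-test 1 and edgeR without replicate 7 of group 1 1. The median log2 FC of the members was 2.29, and that of all genes tested 0.13. A log2 FC over 3 was reached by 10 called members, against 2.07% of all genes tested. In 35 members, at least 10 of the 19 PPGLs lay above every NAM, a pattern found in 21.1% of all genes tested.

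Without replicate 7 of group 1, 42 members were higher (23.0% of all genes), the median log2 FC was 1.75, and 0 called members had a log2 FC over 3 (1.76% of all genes). CDK1 and NUSAP1 were the members whose calls ended. With each of the 29 samples left out in turn, 42 of the 44 called members were called in every fit, and the exceptions were again CDK1 and NUSAP1. A fit with the cortical score, the mean log2 CPM of 11 adrenal cortex markers, as an added term called 1 member and 8.11% of all genes higher and had a median log2 FC of 0.67. At an unadjusted p under 0.05 it gave 9 higher and 1 lower. The called member was HMMR (log2 FC 0.81, FDR-adjusted p = 0.0327, over the alternatives 1.30e-06 to 0.0327). The score differs between the tissues, so this fit also takes out differences that run along with it.

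**Figure D1:**
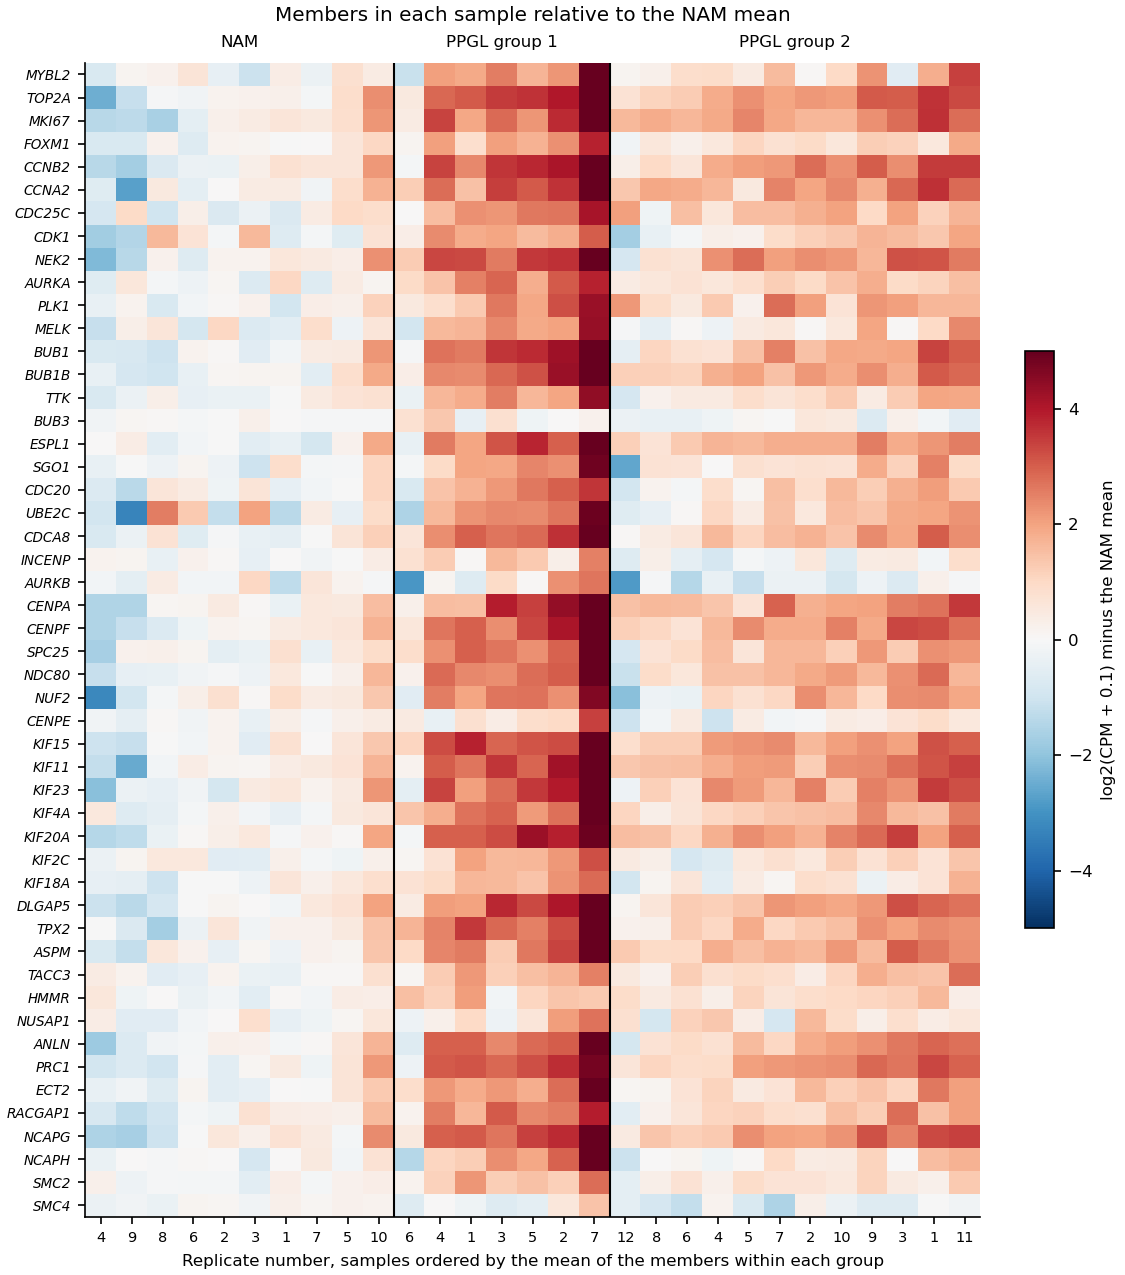
Level of each of the 50 members in each sample, as log2 of CPM plus 0.1 minus the mean of the NAMs, with the scale ending at -5 and 5 and samples ordered by their mean within each group. Replicate 7 of group 1 is the darkest column, and BUB3, AURKB and SMC4 stay pale in most tumors.

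Adrenal cortex markers fell in PPGLs while 44 of the 50 members rose. Of 11 cortex markers tested, 10 were lower in PPGLs, with HSD3B2 as the exception (log2 FC -2.23, FDR-adjusted p = 0.0889). Their summed level had a lowest, median and highest value of 14097, 37351 and 69042 CPM in NAMs, 92.0, 275 and 1169 CPM in group 1 and 255, 3686 and 34406 CPM in group 2. CYP17A1, a steroid hydroxylase, was the most abundant of them in NAMs (median 12299 CPM), and in group 1 the medians of MC2R, MRAP and NR0B1 were at 0. CYP11B2 was not found by name. The part of cortical RNA in the differences of the mitosis genes was not tested beyond the fit with the cortical score.

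Other marker lists are given beside the 22.3% of all genes higher and 15.2% lower in PPGLs. Fibroblast and pericyte markers were higher in PPGLs for 5 of 8 genes, with summed medians of 1111 CPM in NAMs and 2432 CPM in PPGLs, and RGS5 as the most abundant by its median. Endothelial markers were lower for 5 of 8, with summed medians of 716 and 427 CPM. Of 12 leukocyte markers tested, 4 were higher and 1 lower, and their summed medians were 755 CPM in NAMs and 574 CPM in PPGLs. CD79A made up most of that sum, although the B cell markers MS4A1 and CD79B were near 0, and CD14 was not found by name. For erythroid markers, 3 of 3 tested were higher, with summed medians of 0.340 and 3.22 CPM and NAM medians of 0 for HBM, EPB42 and SLC4A1. Schwann and sustentacular markers had a median log2 FC of -1.15 and a smallest FDR-adjusted p of 0.0652. Chromaffin markers were higher for 2 of 11 (PHOX2A and SYP) and lower for 1, PNMT, the enzyme that makes adrenaline. Whether these cells carry the mitosis gene RNA was not tested.

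MKI67, TOP2A, MYBL2 and FOXM1 are read as marks of proliferating cells or drive their transcription. MKI67, on chromosome 28 from 36913023 to 36939486 of CanFam3.1, encodes Ki-67, which coats mitotic chromosomes. Its lowest, median and highest levels were 1.02, 4.26 and 16.1 CPM in NAMs, 4.55, 24.9 and 290.1 CPM in group 1 and 10.6, 13.0 and 43.4 CPM in group 2. Every tumor but replicate 6 of group 1 lay above the NAMs other than NAM replicate 10, the highest NAM, and 5 tumors of group 1 and 5 of group 2 lay above that one too (log2 FC 2.85 ± 0.63, FDR-adjusted p = 0.000816, log2 FC 2.06 without replicate 7). TOP2A, on chromosome 9 from 22207638 to 22237496, encodes the topoisomerase that untangles sister chromatids, and its levels were 0.883, 5.49 and 26.8 CPM in NAMs, 7.29, 59.0 and 668 CPM in group 1 and 8.63, 23.1 and 65.2 CPM in group 2. Again NAM replicate 10 was the highest NAM, 6 tumors of group 1 and 4 of group 2 exceeded it, and the log2 FC without replicate 7 of group 1 was 2.31 against 3.26 with it. MYBL2, the B-Myb transcription factor, had 0.610, 1.58 and 2.49 CPM in NAMs, 0.583, 6.12 and 227 CPM in group 1 and 0.901, 2.69 and 16.1 CPM in group 2. Apart from replicate 7 the tumors of group 1 reached 8.61 CPM, and the log2 FC of 3.42 ± 0.91 (FDR-adjusted p = 0.00399) became 1.56 (FDR-adjusted p = 0.00419) without that tumor. FOXM1, a forkhead factor of late cell cycle genes, had 1.74, 3.20 and 6.26 CPM in NAMs, 3.33, 12.9 and 45.2 CPM in group 1 and 2.65, 4.83 and 11.4 CPM in group 2, so that 5 and 4 tumors of the groups lay above every NAM (log2 FC 1.48 ± 0.39, FDR-adjusted p = 0.00393, log2 FC 1.12 without replicate 7).

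**Figure D2:**
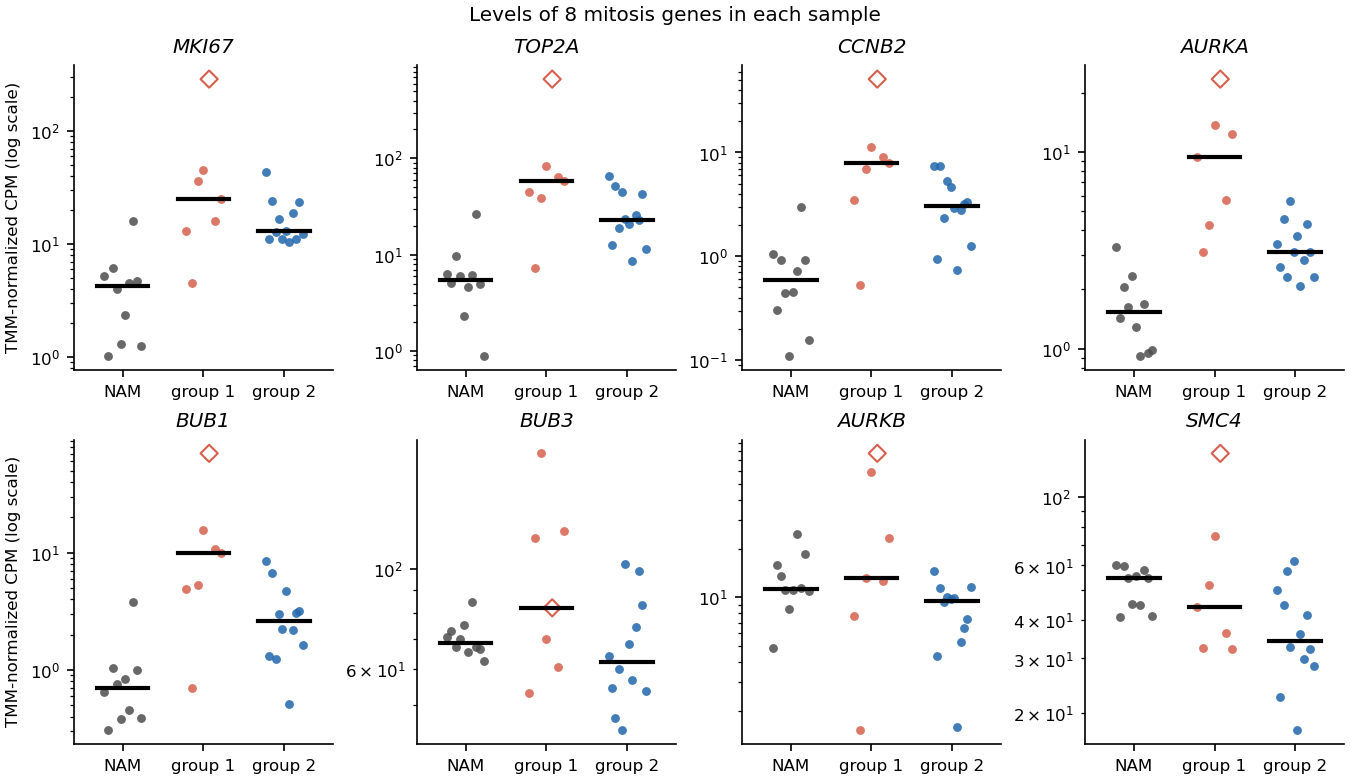
CPM of 8 members in each sample on a log axis, with a line at the median of each group and a diamond for replicate 7 of group 1. MKI67, TOP2A, CCNB2, AURKA and BUB1 have higher medians in both PPGL groups than in NAMs, while BUB3, AURKB and SMC4 overlap across all groups.

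Entry into mitosis is driven by CDK1 bound to a B-type cyclin, and CDC25C removes the phosphates that keep CDK1 off. CCNB2, cyclin B2, had 0.109, 0.587 and 2.95 CPM in NAMs, 0.525, 7.99 and 50.9 CPM in group 1 and 0.733, 3.07 and 7.48 CPM in group 2. Group 1 replicate 6 was within the NAM range and the other 6 tumors of group 1 were above every NAM, as were 6 of group 2 (log2 FC 3.11 ± 0.67, FDR-adjusted p = 0.000681, log2 FC 2.49 without replicate 7). CCNA2, cyclin A2, which acts from DNA replication into early mitosis, had 0.0546, 1.09 and 3.23 CPM in NAMs, 2.28, 8.38 and 40.1 CPM in group 1 and 1.33, 3.78 and 12.6 CPM in group 2, and 9 of the 12 group 2 tumors exceeded every NAM (log2 FC 2.67 ± 0.52, FDR-adjusted p = 0.000259, log2 FC 2.28 without replicate 7). CDK1 itself overlapped more, with 1.38, 4.54 and 15 CPM in NAMs, 6.13, 17.8 and 40.1 CPM in group 1 and 1.41, 10.1 and 19.0 CPM in group 2. Only 2 group 2 tumors lay above every NAM, and its log2 FC of 1.08 ± 0.42 (FDR-adjusted p = 0.0451) was called in 11 of the 29 fits that left out a sample, with log2 FCs from 0.91 to 1.31. Without replicate 7 of group 1 its log2 FC was 0.91 (FDR-adjusted p = 0.0708). CDC25C, present at 0.153, 0.412 and 0.892 CPM in NAMs, was above every NAM in 6 tumors of group 1 and 10 of group 2 (log2 FC 2.03 ± 0.44, FDR-adjusted p = 0.000764, log2 FC 1.73 without replicate 7).

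The kinases AURKA, PLK1, NEK2 and MELK were each higher in PPGLs. AURKA, the kinase of centrosomes and spindle poles, had 0.915, 1.53 and 3.28 CPM in NAMs, 3.09, 9.37 and 23.5 CPM in group 1 and 2.09, 3.08 and 5.60 CPM in group 2. All tumors of group 2 were above the NAM median but only 5 of them above every NAM, while 6 of 7 in group 1 were (log2 FC 1.83 ± 0.40, FDR-adjusted p = 0.000700, log2 FC 1.57 without replicate 7). PLK1, which acts from centrosome maturation to cytokinesis, had 1.09, 2.36 and 4.88 CPM in NAMs, 3.09, 8.56 and 44.9 CPM in group 1 and 2.54, 7.07 and 15.7 CPM in group 2 (log2 FC 2.08 ± 0.42, FDR-adjusted p = 0.000339, log2 FC 1.77 without replicate 7). Tumors beyond the highest NAM numbered 5 in group 1 and 8 in group 2. Of its exon length, 13.1% is shared with ERN2 on the other strand, whose mean was 0.186 CPM in NAMs and 5.27 CPM in PPGLs. The strand setting of the counting is not stated, so reads of ERN2 in PLK1 cannot be told apart. NEK2, a kinase of centrosome separation, and MELK, a kinase abundant in dividing cells, had log2 FCs of 2.97 and 1.55 (FDR-adjusted p = 0.00113 and 0.0191, log2 FC 2.27 and 1.05 without replicate 7), and NEK2 was above every NAM in 6 and 6 tumors of the groups, MELK in 6 and 2.

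The spindle checkpoint holds chromosome separation until every kinetochore is attached. BUB1, a kinetochore kinase, had 0.306, 0.703 and 3.78 CPM in NAMs, 0.700, 9.90 and 70.2 CPM in group 1 and 0.508, 2.62 and 8.48 CPM in group 2. NAM replicate 10 had 3.78 CPM, the next NAM 1.04 CPM, and 6 of 7 and 3 of 12 tumors of the groups lay above all of them (log2 FC 3.09 ± 0.72, FDR-adjusted p = 0.00135, log2 FC 2.30 without replicate 7). BUB1B, or BubR1, part of the complex that blocks CDC20, had 0.917, 1.80 and 7.44 CPM in NAMs, 2.45, 14.9 and 174 CPM in group 1 and 4.35, 7.20 and 16.9 CPM in group 2. Of the tumors, 6 of group 1 and 5 of group 2 were above every NAM (log2 FC 3.04 ± 0.64, FDR-adjusted p = 0.000561, log2 FC 2.21 without replicate 7). TTK, the MPS1 kinase that starts the signal, had a log2 FC of 1.76 ± 0.47 (FDR-adjusted p = 0.00407, log2 FC 1.26 without replicate 7). BUB3, which brings BUB1 and BUB1B to the kinetochore, behaved otherwise. Its levels were 62.6, 68.6 and 84.5 CPM in NAMs, 53.2, 82.0 and 180.3 CPM in group 1 and 43.9, 62.1 and 103 CPM in group 2, with 8 PPGLs below every NAM and 5 above every NAM, and its log2 FC of 0.16 ± 0.18 did not pass the test (FDR-adjusted p = 0.501, log2 FC 0.16 without replicate 7). The NAMs kept within 62.6 to 84.5 CPM, while the tumors spread to both sides of that range.

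Anaphase starts when CDC20 activates the anaphase-promoting complex, whose ubiquitin comes from UBE2C, and the freed separase, ESPL1, opens the cohesin rings that SGO1 protects at centromeres. CDC20 had 1.53, 3.82 and 8.54 CPM in NAMs, 2.33, 18.2 and 48.5 CPM in group 1 and 2.09, 8.42 and 17.1 CPM in group 2, and 6 tumors in each group were above every NAM (log2 FC 1.60 ± 0.43, FDR-adjusted p = 0.00410, log2 FC 1.37 without replicate 7). ESPL1 had 0.534, 1.02 and 4.25 CPM in NAMs, 0.817, 9.18 and 44.9 CPM in group 1 and 1.80, 4.05 and 6.84 CPM in group 2 (log2 FC 2.55 ± 0.52, FDR-adjusted p = 0.000380, log2 FC 2.09 without replicate 7), and in 3 of 12 group 2 tumors it exceeded NAM replicate 10, the highest NAM. SGO1, at 0.191, 0.470 and 1.18 CPM in NAMs, had a log2 FC of 2.02 ± 0.61 (FDR-adjusted p = 0.00955, log2 FC 1.36 without replicate 7). UBE2C did not pass the test, with 0.218, 3.17 and 18.2 CPM in NAMs, 0.992, 16.0 and 93.3 CPM in group 1 and 1.97, 7.17 and 14.9 CPM in group 2 and a log2 FC of 1.31 ± 0.62 (FDR-adjusted p = 0.0971, log2 FC 0.74 without replicate 7). Its NAM range was wide, from NAM replicate 9 to NAM replicate 8, and 2 of 19 PPGLs exceeded it. UBE2C was called without NAM replicate 8, with a log2 FC of 1.73, and also by DESeq2's Wald test with all samples. Over all alternatives its FDR-adjusted p ran from 0.0382 to 0.717. A share of 24.8% of its exon length lies under ACOT8 on the other strand, which averaged 38.0 CPM in NAMs and 33.0 CPM in PPGLs.

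The chromosomal passenger complex corrects wrong attachments and guides cytokinesis. It was the role with the fewest calls, 1 of 3 members found. CDCA8, borealin, had 0.208, 0.363 and 1.10 CPM in NAMs, 0.700, 3.58 and 16.4 CPM in group 1 and 0.451, 1.47 and 4.18 CPM in group 2, and 6 tumors of group 1 and 8 of group 2 were above every NAM (log2 FC 2.65 ± 0.53, FDR-adjusted p = 0.000288, log2 FC 2.24 without replicate 7). AURKB, the kinase of the complex, on chromosome 5 from 33014102 to 33033948, had 4.90, 11.3 and 24.7 CPM in NAMs, 1.52, 13.1 and 77.3 CPM in group 1 and 1.58, 9.57 and 14.5 CPM in group 2. The groups overlapped throughout, with 2 tumors of group 1 (replicates 2 and 7) above every NAM and 3 PPGLs below every NAM, and the log2 FC of 0.26 ± 0.46 (FDR-adjusted p = 0.688) changed sign to -0.10 without replicate 7. AURKB shares 11.6% of its exon length with CTC1 on the same strand, which averaged 45.5 CPM in NAMs and 35.8 CPM in PPGLs. INCENP, the scaffold of the complex, had 15.9, 22.0 and 27.2 CPM in NAMs, 22.2, 51.6 and 122 CPM in group 1 and 12.0, 19.6 and 38.9 CPM in group 2 and did not pass the test (log2 FC 0.65 ± 0.30, FDR-adjusted p = 0.0846, log2 FC 0.42 without replicate 7). Above every NAM were 5 of 7 tumors in group 1 and 4 of 12 in group 2, and 4 tumors of group 2 lay below every NAM.

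Centromere and kinetochore proteins tie chromosomes to microtubules, and 5 of 6 were higher in PPGLs. CENPA, the histone H3 variant of centromeres, had the largest log2 FC of all members (log2 FC 3.73 ± 0.82, FDR-adjusted p = 0.000787, log2 FC 2.78 without replicate 7). It was also among the scarcest, with 0, 0.206 and 0.708 CPM in NAMs, 0.233, 2.89 and 30.2 CPM in group 1 and 0.351, 0.938 and 3.18 CPM in group 2, and 5 tumors of group 1 and 9 of group 2 were above every NAM. CENPF, a kinetochore protein that accumulates late in the cell cycle, had 0.701, 2.42 and 7.48 CPM in NAMs, 3.27, 18.2 and 262 CPM in group 1 and 3.53, 8.27 and 22.9 CPM in group 2, above every NAM in 6 and 8 tumors of the groups (log2 FC 3.30 ± 0.70, FDR-adjusted p = 0.000533, log2 FC 2.31 without replicate 7). NDC80, NUF2 and SPC25 belong to the complex that grips microtubules, and their log2 FCs were 2.56, 1.83 and 2.56 (FDR-adjusted p = 0.00101, 0.00892 and 0.00104, log2 FC 1.88, 1.42 and 1.84 without replicate 7). NDC80 itself had 0.493, 1.11 and 4.05 CPM in NAMs, 1.40, 8.95 and 64.5 CPM in group 1 and 0.508, 3.99 and 9.11 CPM in group 2, above every NAM in 6 and 6 tumors of the groups. CENPE, a kinetochore motor that carries chromosomes to the spindle equator, had 9.39, 12.9 and 17.3 CPM in NAMs, 10.1, 22.6 and 138 CPM in group 1 and 6.21, 16.6 and 24.3 CPM in group 2 and did not pass the test (log2 FC 0.80 ± 0.36, FDR-adjusted p = 0.0815, log2 FC 0.33 without replicate 7). Replicate 7 held 138 CPM of CENPE and the next tumor 25.7 CPM.

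The 7 members named as kinesins (KIF), motor proteins of the spindle, were each higher in PPGLs, while the motor CENPE was not called. KIF4A, which binds chromosome arms, separated the tissues best among the members, with 0.928, 1.40 and 2.32 CPM in NAMs, 4.08, 10.3 and 98.6 CPM in group 1 and 1.88, 4.17 and 9.50 CPM in group 2. It was above every NAM in all 7 tumors of group 1 and in 11 of 12 in group 2 (log2 FC 2.76 ± 0.58, FDR-adjusted p = 0.000536, log2 FC 1.87 without replicate 7). KIF11, which pushes the spindle poles apart, had 0.109, 1.31 and 3.74 CPM in NAMs, 1.23, 9.67 and 87.9 CPM in group 1 and 2.65, 5.02 and 12.7 CPM in group 2. Its tumors above every NAM were 6 of group 1 and 8 of group 2 (log2 FC 3.06 ± 0.62, FDR-adjusted p = 0.000351, log2 FC 2.4 without replicate 7), and KIF15, which assists it, had a log2 FC of 3.25 ± 0.62 (FDR-adjusted p = 0.000190, log2 FC 2.44 without replicate 7). KIF20A and KIF23, motors of cytokinesis, had log2 FCs of 2.76 and 2.91 (FDR-adjusted p = 0.000121 and 0.00117, log2 FC 2.51 and 2.23 without replicate 7), and KIF20A ranged over 0.338, 1.11 and 4.53 CPM in NAMs, 0.992, 11.0 and 35.1 CPM in group 1 and 2.29, 4.66 and 12.7 CPM in group 2. Smaller changes were found for KIF2C, which takes microtubules apart (log2 FC 1.26 ± 0.36, FDR-adjusted p = 0.00676, log2 FC 1.00 without replicate 7), and KIF18A, which damps chromosome movements. KIF18A had 1.68, 3.47 and 6.38 CPM in NAMs, 5.95, 11.2 and 26.1 CPM in group 1 and 1.81, 4.68 and 12.0 CPM in group 2, with 6 tumors of group 1 and 2 of group 2 above every NAM (log2 FC 1.04 ± 0.35, FDR-adjusted p = 0.0193, log2 FC 0.84 without replicate 7).

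Spindle assembly factors were higher in PPGLs for all 6 genes. TPX2, which activates AURKA on microtubules, had 0.917, 3.50 and 8.85 CPM in NAMs, 10.6, 24.2 and 136 CPM in group 1 and 3.72, 8.72 and 16.9 CPM in group 2, and all 7 tumors of group 1 and 6 of group 2 were above every NAM (log2 FC 2.49 ± 0.52, FDR-adjusted p = 0.000446, log2 FC 1.97 without replicate 7). ASPM, a protein of spindle poles, had 0.819, 2.18 and 5.51 CPM in NAMs, 4.14, 12.6 and 79.2 CPM in group 1 and 3.97, 6.61 and 17.4 CPM in group 2, with 5 and 9 tumors of the groups above every NAM (log2 FC 2.49 ± 0.47, FDR-adjusted p = 0.000178, log2 FC 2.00 without replicate 7). DLGAP5, which steadies kinetochore fibers, and TACC3, which cross-links them, had log2 FCs of 3.15 and 1.41 (FDR-adjusted p = 0.00101 and 0.000264, log2 FC 2.26 and 1.31 without replicate 7). For HMMR, a hyaluronan receptor that also binds the spindle, the change was small, and replicate 7 of group 1 was in the middle of its group. Levels were 4.35, 6.06 and 9.22 CPM in NAMs, 5.76, 15.5 and 27.1 CPM in group 1 and 7.79, 11.9 and 19.3 CPM in group 2, above every NAM in 6 and 9 tumors of the groups (log2 FC 1.04 ± 0.20, FDR-adjusted p = 0.000198, log2 FC 1.03 without replicate 7). NUSAP1, which bundles microtubules, had a log2 FC of 0.89 ± 0.32 (FDR-adjusted p = 0.0313), called in 23 of the 29 fits without 1 sample. The calls ended without replicate 7 of group 1 (log2 FC 0.68) and without NAM replicates 1, 6, 7, 8 or 9, with log2 FCs from 0.68 to 1.00 over all 29 fits.

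Cytokinesis factors divide the cell, and all 4 were higher in PPGLs. PRC1, which bundles the microtubules of the spindle midzone, had 1.17, 2.15 and 10.8 CPM in NAMs, 1.98, 21.9 and 67.1 CPM in group 1 and 3.61, 11.2 and 24.6 CPM in group 2 (log2 FC 2.50 ± 0.49, FDR-adjusted p = 0.000244, log2 FC 2.24 without replicate 7). In NAM replicate 10 it had 10.8 CPM, above all other NAMs, and 6 and 7 tumors of the groups exceeded that value. ANLN, anillin of the contractile ring, had 0.545, 2.16 and 7.28 CPM in NAMs, 1.34, 17.6 and 100.3 CPM in group 1 and 1.13, 7.40 and 16.9 CPM in group 2, with 6 and 6 tumors of the groups above every NAM (log2 FC 2.52 ± 0.57, FDR-adjusted p = 0.00104, log2 FC 1.97 without replicate 7). ECT2 and RACGAP1, which act at the cleavage furrow, had log2 FCs of 2.10 and 1.77 (FDR-adjusted p = 0.00153 and 0.00211, log2 FC 1.5 and 1.52 without replicate 7).

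Condensin folds mitotic chromosomes. NCAPG and NCAPH, subunits of condensin I, were higher in PPGLs, with log2 FCs of 2.82 and 1.93 (FDR-adjusted p = 0.000792 and 0.0120, log2 FC 2.19 and 1.12 without replicate 7), and NCAPG ranged over 0.328, 1.37 and 6.89 CPM in NAMs, 1.81, 11.3 and 91.9 CPM in group 1 and 1.75, 5.78 and 14.5 CPM in group 2. Its tumors above every NAM numbered 6 in group 1 and 4 in group 2. SMC2 and SMC4 form the ring core shared by both condensins, yet their values differed. SMC2 had 5.64, 7.62 and 10.2 CPM in NAMs, 9.10, 19.3 and 57.4 CPM in group 1 and 5.70, 12.4 and 20.5 CPM in group 2 and rose (log2 FC 1.09 ± 0.27, FDR-adjusted p = 0.00260, log2 FC 0.89 without replicate 7). SMC4, on chromosome 34 from 26456142 to 26494725, had 41.0, 54.8 and 60.3 CPM in NAMs, 32.2, 44.2 and 138 CPM in group 1 and 17.6, 34.3 and 61.9 CPM in group 2, with 10 PPGLs below every NAM and 3 above every NAM. Its log2 FC was -0.18 ± 0.22 (FDR-adjusted p = 0.559, log2 FC -0.35 without replicate 7), the lowest of the members. SMC4 was the member lower at an unadjusted p under 0.05 by the Mann-Whitney U-test, and by edgeR without replicate 7. Over all alternatives its smallest FDR-adjusted p was 0.0957.

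Most members that did not pass the test against NAMs were abundant in normal tissue when levels were scaled by exon length. Median levels in NAMs, in CPM per kb of exon, were 46.6 for BUB3, 10.7 for SMC4, 6.26 for INCENP, 5.43 for UBE2C, 5.03 for NUSAP1 and 3.70 for AURKB, the 6 highest of 50. NUSAP1 was the called member among them, and CENPE, not called either, had 1.47 CPM per kb. The lowest NAM medians were 0.158 CPM per kb for ESPL1 and 0.170 CPM per kb for BUB1. In PPGLs BUB3 was still the most abundant per length, with a median of 46.3 CPM per kb, followed by UBE2C with 15.5 and NUF2 with 11.0.

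Each PPGL group was also set beside the NAMs in a fit of all 3 groups over 15201 genes, and the results below share the same NAMs. In group 1, 47 members were higher and 0 lower by edgeR (21.0% and 14.1% of all genes). At an unadjusted p under 0.05, 0 members were lower by edgeR and 0 by DESeq2. The median log2 FC of the members in group 1 was 3.03, and 25 called members had a log2 FC over 3, against 2.52% of all genes. That count includes replicate 7 and is not given without it. BUB3, AURKB and SMC4 were not called (log2 FC 0.47, 1.09 and 0.18, FDR-adjusted p = 0.0642, 0.0733 and 0.622), and without replicate 7 had 0.51, 0.58 and -0.18. CENPA, MYBL2 and CENPF had the largest log2 FCs, 4.75, 4.61 and 4.30. Without replicate 7, 44 members were higher (19.3% of all genes) with a median of 2.22. CENPA, MYBL2 and CENPF then had log2 FCs of 3.35, 1.83 and 2.77, and UBE2C, CENPE and NUSAP1 were no longer called (FDR-adjusted p = 0.124, 0.0754 and 0.101). With the cortical score in the fit edgeR called 0 members and 0.0526% of all genes higher in group 1, with 2 at an unadjusted p under 0.05, and the median was 1.17.

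In group 2, 32 members were higher and 0 lower than in NAMs by edgeR (18.4% and 14.5% of all genes), with a median log2 FC of 1.41. At an unadjusted p under 0.05, 0 were lower by edgeR and 1 by DESeq2. CENPA, CCNB2 and KIF20A had the largest log2 FCs, 2.36, 2.12 and 2.07 (FDR-adjusted p = 0.00852, 0.00641 and 0.000950, log2 FC 2.35, 2.10 and 2.06 without replicate 7 in the fit), and AURKB, SMC4 and BUB3 the smallest, -0.63, -0.45 and -0.07 (FDR-adjusted p = 0.249, 0.122 and 0.803, log2 FC -0.64, -0.46 and -0.07 without it). Without replicate 7 of group 1 in the shared fit, 36 members were higher (19.7% of all genes) and 1 lower, SMC4 (log2 FC -0.46, FDR-adjusted p = 0.0454). MYBL2, FOXM1, TTK and CDC20 were the members added to the higher ones. With the cortical score in the fit 1 member was higher (4.32% of all genes), HMMR (log2 FC 0.97, FDR-adjusted p = 0.0330, over the alternatives 0.000167 to 0.0330), and the median was 0.76.

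**Figure D3:**
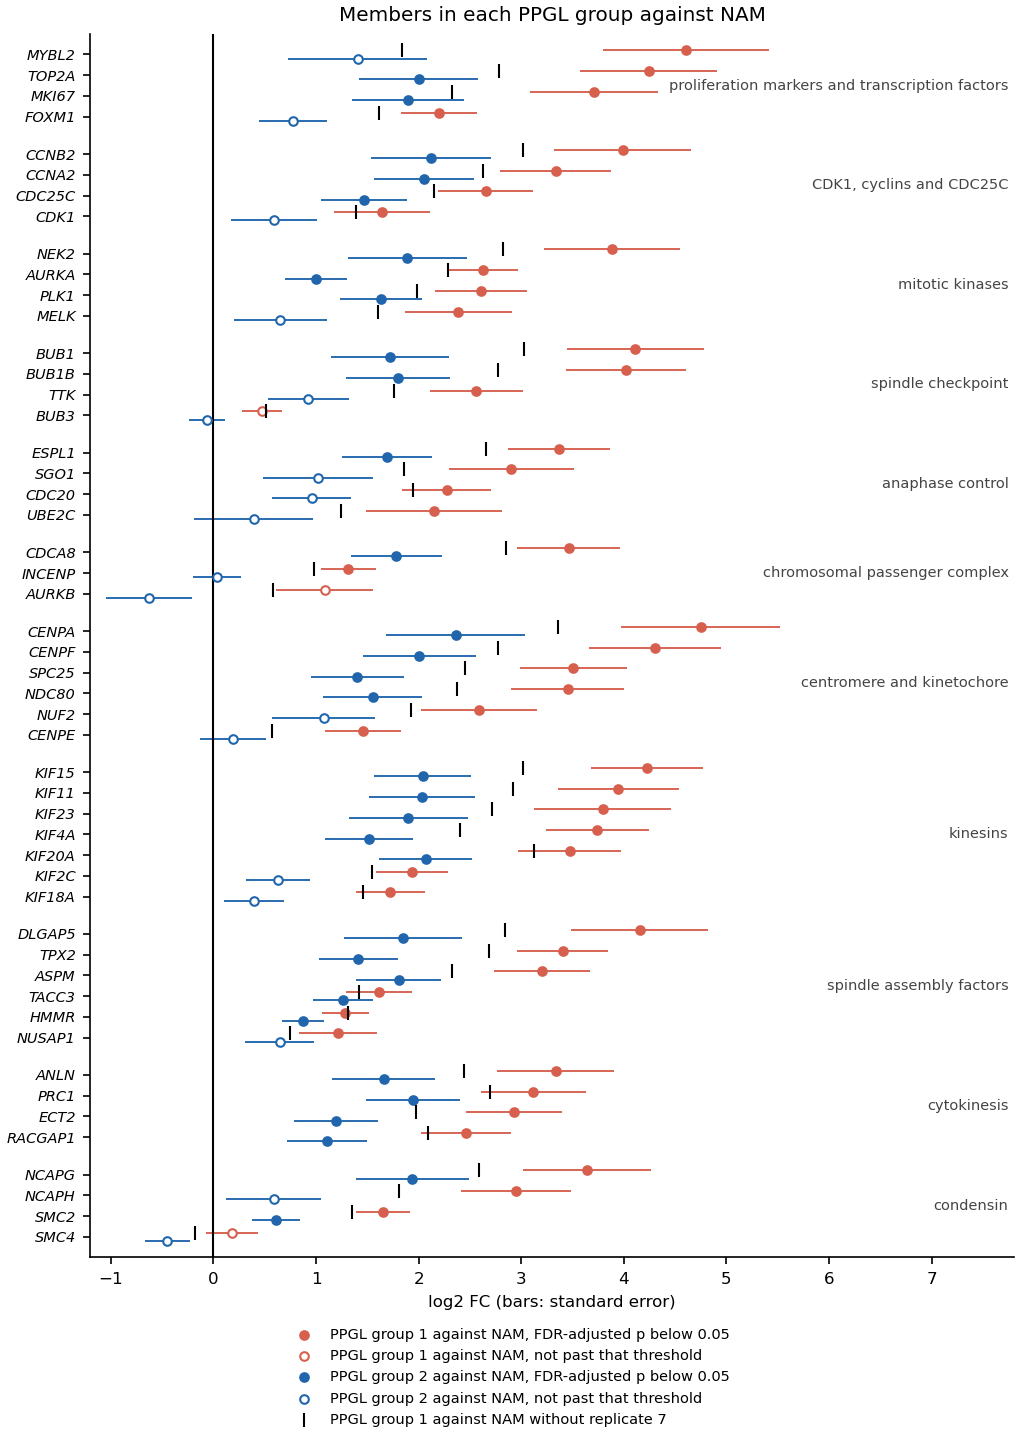
Log2 FC of each member in PPGL group 1 and group 2 against NAM, with bars for the standard error, filled points for an FDR-adjusted p below 0.05 and a black tick for group 1 without replicate 7. Most ticks lie left of the group 1 point, and BUB3, AURKB and SMC4 are open in both groups.

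The direct comparison of group 1 with group 2, among the 19 PPGLs and 14666 genes, asked whether the mitosis genes differ between the tumor groups. All 50 members had a positive log2 FC, 36 were higher in group 1 and 0 lower by edgeR at an FDR-adjusted p below 0.1, against 3.97% and 2.95% of all genes. DESeq2's Wald test also gave 0 lower members, and edgeR gave 0 at an unadjusted p under 0.05. The median log2 FC was 1.67, and that of all genes 0.04. MYBL2, BUB1 and CENPA had the largest values (3.17, 2.38 and 2.36, FDR-adjusted p = 0.0428, 0.0399 and 0.0571), and TACC3, HMMR and BUB3 the smallest (0.35, 0.43 and 0.54, FDR-adjusted p = 0.620, 0.354 and 0.199, log2 FC 0.17, 0.44 and 0.58 without replicate 7). Every KIF gene was called (7 of 7), as were the 4 proliferation genes and the 3 passenger genes, but only CCNB2 of 4 genes of the CDK1 role.

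Many of these calls depended on replicate 7, and some on other single tumors. Of the 19 fits that left out a tumor, KIF20A and KIF23 were called in 7 each, CCNB2 in 8 and MKI67 in 11, mostly lost without 1 tumor of group 2. Without replicate 7, 3 members were higher in group 1 (1.73% of all genes), and the median log2 FC was 0.85. They were AURKA (log2 FC 1.30 ± 0.30, FDR-adjusted p = 0.0359), TPX2, its activator (1.28 ± 0.33, FDR-adjusted p = 0.0522), and INCENP (0.95 ± 0.27, FDR-adjusted p = 0.0813). These were also the members called in all 19 fits. Over all alternatives the FDR-adjusted p of AURKA ran from 0.000170 to 0.715, that of TPX2 from 0.000267 to 0.843 and that of INCENP from 0.00202 to 0.875, the highest being with the cortical score. TPX2 overlapped least, since 6 of 7 tumors of group 1 lay above every tumor of group 2, and AURKA did so in 5 and INCENP in 4. By ranks alone, the Mann-Whitney U-test called 2 members, KIF18A and TPX2, beside 1.09% of all genes higher, and 29 at an unadjusted p under 0.05. A block on the replicate number joins tumors that only share a number (r between them -0.12 to 0.05). With it edgeR called 0 members, beside 0.0682% of all genes higher, and 16 members had an unadjusted p under 0.05. MKI67 differed with replicate 7 (log2 FC 1.80 ± 0.55, FDR-adjusted p = 0.0764) and had a log2 FC of 0.44 (FDR-adjusted p = 0.617) without it.

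By role, the log2 FCs of group 1 over group 2 with and without replicate 7 fell into different sizes. Among proliferation genes they were 1.80 and 0.44 for MKI67, 2.22 and 0.79 for TOP2A, 3.17 and 0.46 for MYBL2 and 1.41 and 0.85 for FOXM1, with FDR-adjusted p = 0.0456 for TOP2A and 0.0466 for FOXM1 with the tumor and 0.367 and 0.186 without it. CCNB2, CCNA2 and CDK1 had 1.85 and 0.92, 1.27 and 0.58 and 1.05 and 0.81, and only CCNB2 passed the test with all tumors (FDR-adjusted p = 0.0848, 0.143 and 0.152). PLK1 did not pass the test in either fit (0.97 and 0.37, FDR-adjusted p = 0.255 and 0.722). Of the checkpoint genes, BUB1 and BUB1B had 2.38 and 1.33 and 2.20 and 0.99, while BUB3 kept its small value (0.54 and 0.58). CDC20, UBE2C and ESPL1 had 1.31 and 1.00, 1.74 and 0.87 and 1.67 and 0.98 (FDR-adjusted p = 0.101, 0.0824 and 0.0529 with all tumors).

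Passenger, kinetochore and motor genes lost more or less of their log2 FC without replicate 7. AURKB, which did not pass the test of PPGLs against NAMs, was higher in group 1 than in group 2 with all tumors (log2 FC 1.71 ± 0.51, FDR-adjusted p = 0.0668) and had 1.22 (FDR-adjusted p = 0.223) without replicate 7. CENPA, CENPE, CENPF and NDC80 had 2.36 and 1.01, 1.26 and 0.39, 2.27 and 0.77 and 1.88 and 0.83, each called with all tumors and not without replicate 7, and CENPE in 7 of the 19 fits that left out a tumor. The motors KIF11, KIF20A and KIF18A had 1.89 and 0.89, 1.40 and 1.06 and 1.33 and 1.07, and KIF18A came closest to the threshold without replicate 7 among members not called there (FDR-adjusted p = 0.106). ASPM and ANLN had 1.38 and 0.53 and 1.66 and 0.79. With all tumors ASPM was called and ANLN was not, and they were called in 6 and 7 of the 19 fits. PRC1 had 1.17 and 0.77, not called in either fit (FDR-adjusted p = 0.159 and 0.410). In condensin, NCAPG and SMC2 had 1.68 and 0.67 and 1.04 and 0.75 and were called with all tumors (FDR-adjusted p = 0.0883 and 0.0534) and in 8 and 18 of the 19 fits, and SMC4, with 0.63 and 0.28, was not (FDR-adjusted p = 0.233).

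Cortex markers also differed between the PPGL groups, although single tumors overlapped. By their mean log2 CPM, replicate 6 of group 1 (3.49) lay above replicate 7 of group 2 (2.82). Of 11 cortex markers, 10 were lower in group 1, all but STAR, with a median log2 FC of -6.53, and their mean log2 CPM was 1.09 ± 1.44 (SD, n = 7) in group 1 and 6.43 ± 1.86 (SD, n = 12) in group 2. With the cortical score in the fit edgeR called 0 members higher between the groups, beside 0% of all genes. At an unadjusted p under 0.05, 1 member was higher, and the median log2 FC was 0.44. By the mean log2 CPM of the chromaffin markers, replicates 3, 5 and 7 of group 1 were the lowest of all samples (6.93, 5.53 and 6.73), though not for every marker. TH had 10.8 CPM in replicate 3 and 2.15 CPM in replicate 5, against 1382 CPM in replicate 7, 32.3 CPM in replicate 7 of group 2 and a group 2 median of 2213 CPM. SYP, synaptophysin, had 595 and 627 CPM in replicates 3 and 5, above the highest NAM (417 CPM). Summed chromaffin markers had a lowest, median and highest value of 7817, 34417 and 118555 CPM in group 1 and 20783, 49535 and 103006 CPM in group 2, with DBH the most abundant by its median in group 1 and CHGB in group 2, and CHGA was not found by name. Without replicates 3, 5 and 7, a choice made after the data were seen, edgeR called 0 members between the groups, beside 1.13% of all genes higher, and 9 at an unadjusted p under 0.05. The part of these tumors' cell content in the group difference was not tested. At an unadjusted p under 0.05 by edgeR, 5 of 8 fibroblast and pericyte markers were lower in group 1 (smallest FDR-adjusted p = 0.126). Of 12 leukocyte markers, 2 were lower and 1 higher (smallest FDR-adjusted p = 0.157). Shares of all genes at an unadjusted p are not given. Of 4 erythroid markers, 1 was lower. It also passed the FDR-adjusted threshold (FDR-adjusted p = 0.0580), at which 2.95% of all genes were lower. The part of these cells was not tested either.

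Among the tumors, the mean log2 CPM of the 50 members varied widely within each group. It was 1.29 ± 0.56 (SD, n = 10) in NAMs, 3.63 ± 1.35 (SD, n = 7) in group 1, 3.24 ± 0.93 (SD, n = 6) without replicate 7, and 2.52 ± 0.62 (SD, n = 12) in group 2. Replicate 6 of group 1 (1.44) and replicates 4, 5, 6, 8 and 12 of group 2 (2.23, 2.39, 1.94, 1.82 and 1.34) lay within the range of the NAMs, which ended at 2.51 in NAM replicate 10. The next highest NAM, replicate 5, had 1.65, and replicates 4, 5, 6 and 8 of group 2 lay above it. The lowest tumors, replicate 12 of group 2 and replicate 6 of group 1, had 4 and 6 members above every NAM, and replicate 8 of group 2 had 2 such members. At the high end, replicate 7 of group 1 had 49 of 50 above every NAM, replicate 2 of group 1 48, replicate 5 of group 1 44, and replicates 3 and 4 of group 1 and 11 of group 2 each 43. Replicate 11 of group 2 also had the highest leukocyte markers (mean log2 CPM 5.05, NAM maximum 2.50) and 27495 CPM of fibroblast and pericyte markers, whose part in its mitosis gene levels was not tested.

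**Figure D4:**
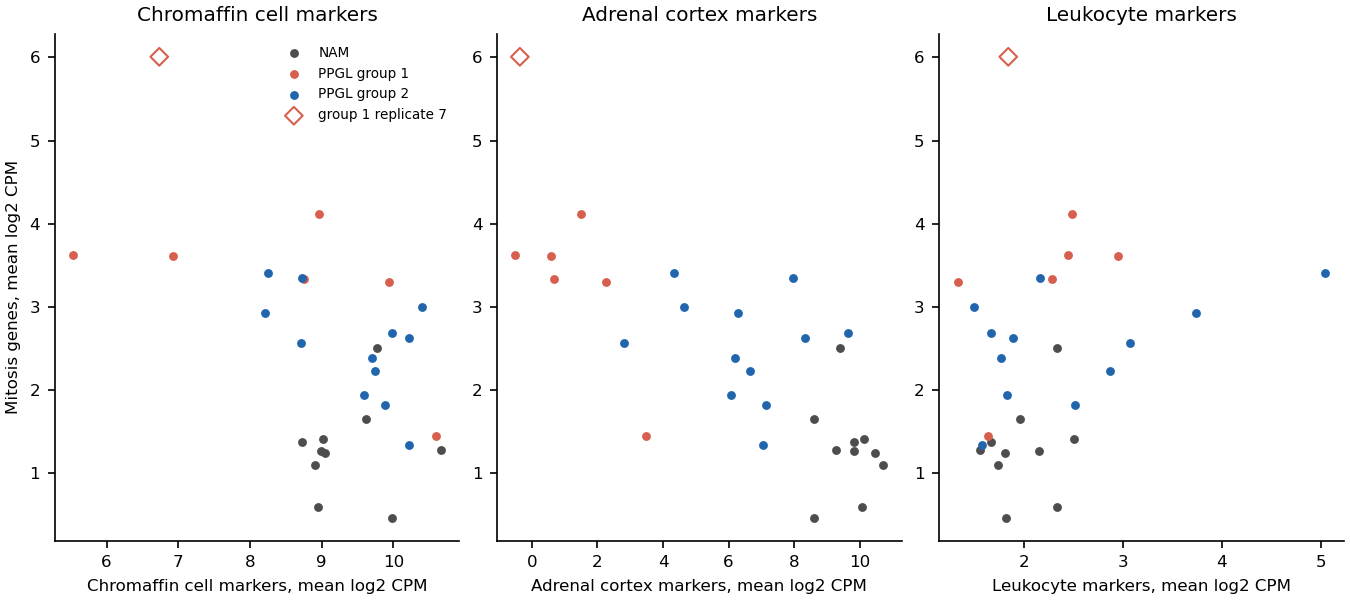
Mean log2 CPM of the 50 members against that of chromaffin, adrenal cortex and leukocyte markers in each sample, with a diamond for replicate 7 of group 1. Group 1 sits at low cortex marker levels, from -0.50 to 3.49, and replicate 11 of group 2 at the highest leukocyte marker level.

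Members also varied together within the NAMs and within group 2. Over the 10 NAMs, the log2 CPM of each member and the mean of the others had a median Pearson r of 0.73, from -0.08 for BUB3 to 0.97 for CENPF. NAM replicate 10, the highest NAM for 38 members, is part of that. Over the 12 tumors of group 2 the median r was 0.83, with TOP2A and CCNB2 at 0.97 and 0.95 and NUSAP1, BUB3, CDC25C and PLK1 at 0.00, 0.08, 0.17 and 0.20. These are descriptions over samples that share library depth and tissue content, and no p is given.

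Other mitosis genes were examined outside the 50 members. Of 65 tested, 45 were higher and 2 lower in PPGLs (all genes 22.3% and 15.2%), with a median log2 FC of 1.23. Against NAMs, the values of this list and of the lists below include replicate 7 of group 1 and are not given without it. The kinesins KIF18B (log2 FC 3.85 ± 0.75, FDR-adjusted p = 0.000242) and KIF14 (log2 FC 3.59 ± 0.71, FDR-adjusted p = 0.000266) rose most, and the lower genes were WEE1, the kinase that restrains CDK1 (log2 FC -1.46 ± 0.33, FDR-adjusted p = 0.00115), and CIT, citron kinase of the midbody (log2 FC -1.29 ± 0.26, FDR-adjusted p = 0.000380). Between the groups 37 of 65 were higher in group 1 (3.97% of all genes), among them CDCA2 and KIF18B (log2 FC 2.65 and 2.62) at the top and NSL1 and CKS1B (0.78 and 0.67) at the bottom. Without replicate 7, 3 of them were called (1.73% of all genes).

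Complexes that mitotic cells share with resting cells had smaller median log2 FCs than the members, a difference that was not tested. Beside 22.3% of all genes higher and 15.2% lower, of 15 genes of the anaphase-promoting complex, 3 were higher (ANAPC10, log2 FC 0.43, FZR1, 0.40, and ANAPC16, 0.35) and 1 lower, ANAPC5 (-0.56), with a median of 0.14. The list of cohesin and condensin II genes also held NCAPD2, a condensin I subunit. Of its 15 genes 7 were higher, from SMC3 (0.40) and WAPL (0.45) to NCAPG2, a condensin II subunit (2.27), and ESCO2, which acetylates cohesin during replication (3.23). Among 11 MuvB and DREAM genes, 3 were higher (LIN9 1.33, RBL1 0.46 and LIN37 0.43) and 1 lower, E2F4, the repressor of DREAM (log2 FC -0.50 ± 0.11, FDR-adjusted p = 0.000526). DNA replication genes were higher for 25 of 41, with a median of 0.83, also under that of the members. CDC45 and CDC6 were at the top (log2 FC 3.34 and 3.07), and PRIM2 and TYMS at the bottom of those called (0.56 and 0.50).

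In group 1 against group 2, 3.97% of all genes were higher. The calls of these lists were 1 of 15 for the anaphase-promoting complex (ANAPC1, log2 FC 1.06) and 1 of 11 for MuvB and DREAM (LIN9 1.44). For the cohesin and condensin list they were 3 of 15 (ESCO2 2.39, NCAPG2 2.04 and NCAPD3 0.91), and for DNA replication 26 of 41. UHRF1 and CDC45 led the last list (log2 FC 3.40 and 3.03, FDR-adjusted p = 0.0161 and 0.0249), and RRM1 and MCM4 had its smallest called values (0.72 and 0.69). Without replicate 7 edgeR called 8 of 41 DNA replication genes between the groups and 1.73% of all genes higher. The genes of the first 3 lists had no call in that fit.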

How the data were processed

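Gene expression was measured by RNA sequencing of 29 dog samples, from stranded mRNA libraries read as single ends of 50 bp. The authors deposited 1 table of raw counts, the reads counted on the exons of each Ensembl gene of CanFam3.1, without normalization, and the submitters' notes name FastQC, STAR, Picard and HTSeq, while the name of the table holds featureCounts, so the counting tool is uncertain. The strand setting of the counting and the handling of reads that fit several places are not named, so values of overlapping genes are uncertain. Members were matched by gene name. Members and gene lists were chosen with earlier results of these data known.

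Genes were filtered with edgeR's filterByExpr (minimum count 10, minimum total 15), normalized by TMM and tested with the QL F test of edgeR 4.0.16 in R 4.3.3, PPGLs against NAMs over 29 samples, the groups over 19 PPGLs, and each group against NAMs in a fit of 3 groups. Benjamini-Hochberg correction ran over all genes tested. The SE is the absolute log2 FC divided by the square root of F, and log2 CPM used a prior count of 2. All 50 members passed the filter in each comparison. Members are given by role, the best-known ones in full, with the 3 largest and 3 smallest log2 FCs of each comparison, and of other lists the 2 largest and 2 smallest among called genes. Lists of other mitosis, anaphase-promoting complex, cohesin and condensin, MuvB and DREAM and DNA replication genes were set beside them. So were markers of chromaffin, adrenal cortex, leukocyte, endothelial, fibroblast and pericyte, erythroid, and Schwann and sustentacular cells. CENPC, MIS12, PMF1, SPDL1, CKS2, ARHGAP11A, TUBB and PRIM1 of these lists were not found by name.

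Alternatives were DESeq2 1.42.0 (size factors or Wald test), library size alone, no filter, robust dispersion (limma 3.58.1), the cortical score as a covariate, a replicate block on the sample number, the Mann-Whitney U-test on CPM, all 29 samples in the fit of the groups, each sample left out in turn and, chosen after seeing the data, replicates 3, 5 and 7 of group 1 left out. Replicate numbers count different dogs in each group. Correlations had two-sided permutation p-values, exact for 7 tumors and from 100000 permutations for 12, corrected over 10 relations. The steps were tested on simulated data. Python 3.11.15, pandas 2.3.3, scipy 1.17.1 and matplotlib 3.10.9 were used.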

Additional observations from a re-analysis of the deposited data

Results flagged for a closer look

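Each member was examined in the NAMs and in PPGL group 1 for a sample that stood far from the rest, 100 pairs of gene and group in all. The gap between the highest or lowest sample and its nearest neighbor was divided by the whole range of the group on the log2 scale, and pairs above Dixon's critical value are given. Chance alone puts about 1 in 20 groups there.

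In group 1, replicate 7 was far above the other tumors for CENPE, with 138 CPM, the nearest other sample 25.7 CPM (share 0.643), and for KIF4A, with 98.6 CPM, the nearest other sample 12.2 CPM (share 0.659). Replicate 6 of group 1 was far below the others for KIF20A, with 0.992 CPM, the nearest other sample 9.05 CPM (share 0.613), and for PRC1, with 1.98 CPM, the nearest other sample 17.9 CPM (share 0.621). Among NAMs, replicate 10 was far above the rest for BUB1, with 3.78 CPM, the nearest other sample 1.04 CPM (share 0.538), for ESPL1, with 4.25 CPM, the nearest other sample 1.42 CPM (share 0.544), and for PRC1, with 10.8 CPM, the nearest other sample 3.72 CPM (share 0.488). CCNA2 was far below the rest in NAM replicate 9, with 0.0546 CPM, the nearest other sample 0.571 CPM (share 0.49). Its value there lies under the floor of 3 counts, 0.156 CPM in that NAM before TMM scaling, so the size of this gap is uncertain. NUF2 was far below the rest in NAM replicate 4, with 0.415 CPM, the nearest other sample 2.4 CPM (share 0.504).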

How the results depend on the processing

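Single members kept their direction and their side of the threshold in 1808 of 1900 values under the alternatives for PPGLs against NAMs. Between the groups they did so in 1125 of 1450, and against NAMs in 385 of 450 for group 1 and 395 of 450 for group 2. Of 38 alternatives for PPGLs against NAMs, 29 left out 1 sample, as did 19 of 29 between the groups. These fits share most of their samples, so the totals count similar fits many times. With the cortical score, 2 members kept both for PPGLs against NAMs, 12 between the groups, 2 for group 1 and 12 for group 2. Robust dispersion left the median log2 FC of the members unchanged, and the Mann-Whitney U-test gives no log2 FC of its own. No member changed sign with DESeq2's size factors or with library size alone. Library size alone moved the median log2 FC of all genes from 0.13 to 0.24 in group 1 against NAMs, where that of the members was 3.23 and 49 were higher. The share of all genes higher in that fit is not given. With TMM it was 21.0%, beside 47 members. With each sample left out in turn, 42 to 44 members were higher in PPGLs (median log2 FC 1.75 to 2.50), and 3 to 44 in group 1 over group 2 (0.85 to 1.87). Of these fits, shares of all genes higher are given only without replicate 7 of group 1, at 23.0% in PPGLs and 1.73% between the groups. AURKB in PPGLs had a log2 FC of 0.41 without NAM replicate 3. Group 2 against NAMs had 1 lower member without replicate 7 of group 1.

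With the cortical score in the fit, the members higher and their median log2 FC were 1 and 0.67 for PPGLs against NAMs (9 higher and 1 lower at an unadjusted p under 0.05 by edgeR), 0 and 0.44 between the groups (1), 0 and 1.17 for group 1 (2) and 1 and 0.76 for group 2 (7). Log2 FCs that changed sign were MYBL2 -0.28, FOXM1 -0.00590, MELK -0.36, BUB3 -0.0137, UBE2C -0.44, AURKB -1.30, INCENP -0.58, CENPE -0.37, KIF18A -0.13 and NCAPH -0.45 for PPGLs against NAMs, MYBL2 -0.43, PLK1 -0.72, MELK -0.36, CENPA -0.18, KIF20A -0.21, TACC3 -1.01 and SMC2 -0.0187 between the groups, MYBL2 -0.25, PLK1 -0.0442, MELK -0.28, AURKB -0.0398 and TACC3 -0.60 for group 1 and MYBL2 -0.28, MELK -0.34, BUB3 0.29, UBE2C -0.23, INCENP -0.43, CENPE -0.28 and NCAPH -0.24 for group 2. The cause was not tested.

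The Mann-Whitney U-test called 2 members and 1.09% of all genes higher between the groups. Against 36 in the main fit, DESeq2's Wald test called 43 members, DESeq2's size factors 38, library size alone 41 and all 29 samples in the fit 44. No filter gave 33. Shares of all genes are not given for these alternatives. Without replicates 3, 5 and 7 of group 1, an alternative chosen after seeing the data, edgeR called 0 members between the groups (1.13% of all genes, 9 members at an unadjusted p under 0.05, median log2 FC 0.68), and the median in group 1 against NAMs was 2.02. AURKB then had a log2 FC of -0.18 in PPGLs and SMC4 -0.0232 in group 1. Without replicate 7 alone they had -0.10 and -0.18. Both fits have fewer samples, and the cause was otherwise not tested.

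A replicate block on the sample number joins samples that only share a number. Over the genes, r between samples of the same number was -0.07 to 0.04 for the 7 pairs of NAM with group 1, -0.23 to 0.25 for the 10 of NAM with group 2 (2 over 0.1) and -0.12 to 0.05 for the 7 between the groups. With the block edgeR called 38 members in PPGLs, 0 between the groups (0.0682% of all genes, 16 members at an unadjusted p under 0.05), 45 in group 1 and 31 in group 2. Against NAMs, shares of all genes with the block are not given. Without it 22.3% of all genes were higher in PPGLs, 21.0% in group 1 and 18.4% in group 2. Log2 FCs that changed sign were AURKB -0.10 in PPGLs, SMC4 -0.0142 in group 1 and INCENP -0.0650 in group 2.

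Depth limits the scarcest members, above all CENPA in NAMs. The planned description of promoter motifs was not run, since no promoter sequences of the dog build were at hand.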

Other observations

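The genes outside the list whose log2 CPM was most like the mean of the members, by Pearson r over the 19 PPGLs and among 12760 genes with a symbol, were all genes of mitosis or DNA replication in the lists above. CKAP2L, a spindle protein, had an r of 0.98, and CDCA5, or sororin, which guards cohesin, 0.96. KIF14, PLK4 (the kinase of centriole duplication), KIFC1, ORC1 (of the origin recognition complex), CCNF (cyclin F), GTSE1, UHRF1 and KNL1 (a kinetochore scaffold) followed, down to 0.95. These values span both PPGL groups, and the part of the group difference in them was not tested. Without replicate 7 of group 1, those of the same 10 genes lay between 0.91 and 0.97, at ranks from 1 to 15 with other genes between them. CKAP2L was itself higher in PPGLs than in NAMs (log2 FC 3.21 ± 0.72, FDR-adjusted p = 0.00101).

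MKI67 was set against 1 marker of each of 5 cell types within each PPGL group, 10 relations in all. Collagen gene COL1A1 in group 1 gave Pearson's r of 0.71 (exact permutation p = 0.0690, adjusted p = 0.690) and Spearman's rho of 0.79 (exact permutation p = 0.0480, adjusted p = 0.480), and r was 0.42 without the 2 tumors farthest from the median of COL1A1. For TH, CYP11A1, PTPRC and PECAM1 in group 1 and all 5 markers in group 2, r lay between -0.50 and 0.20 and rho between -0.41 and 0.25, with permutation p-values from 0.220 and adjusted p-values from 0.889. Without the 2 tumors farthest from the median of the marker, their r lay between -0.67 (TH in group 2) and 0.19 (PECAM1 in group 1). No relation passed the correction.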
